A study of Rattus norvegicus with 16 samples.

Results

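Cd4, Cd8a and Cd8b, which encode the co-receptors of T cells, were examined together with the CD3 chain genes Cd3d, Cd3e and Cd3g and with Lck, Zap70, Cd5 and Cd27 in rat plantaris muscle under overload. These 10 genes were taken by gene symbol from the platform annotation, out of 14557 named genes with 1 cluster each, and each of the 10 had 1 transcript cluster of its own. They were chosen by their log2 differences at days 3, 7 and 28 from earlier results of these data, so their values are given as a description with no test of their own. The muscles came from Sprague Dawley rats labelled as retired breeders. Of 16 arrays, 4 were from control animals (day 0, no overload) and the others, 4 a time point, from plantaris collected 3, 7 and 28 days after removal of the Achilles tendon on both sides. That surgery takes the gastrocnemius and soleus out of action and shifts their load to the plantaris. No sham surgery was among the groups, so load and surgery cannot be told apart, and the labels do not say that the numbered replicates were separate animals.

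The T cell receptor recognises a peptide held by an MHC molecule, and the CD3 chains carry that signal into the cell. CD4 binds MHC class II and CD8, a pair of alpha and beta chains, binds MHC class I, and both bring the kinase LCK to the receptor, after which ZAP70 docks on the phosphorylated CD3 chains. In rats CD4 is also carried by monocytes and macrophages, and CD8 can be found on activated macrophages and natural killer cells, whereas the CD3 chains are close to restricted to T cells. CD5 is a surface receptor that damps T cell receptor signals and is also found on some B cells, and CD27 is a co-stimulatory receptor of the tumour necrosis factor receptor family.

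The values were log2 expression values, and the median over all 36685 clusters of an array lay between 3.19 and 3.41. A gene whose mean lay under the median of its arrays is called dim here. Of the 10 genes, 8 were dim at day 0, all but Cd4 and Cd5, and Cd3d, Cd3e and Zap70 were dim on every day. All 9 measured muscle fibre markers were above that median, and their mean over a sample lay between 12.82 and 12.85 at day 0 and between 12.30 and 12.60 at day 3. Differences are log2 differences between day means ± SE from limma with n = 4 arrays a day, and a gene is called where its adjusted p over all 14557 genes was under 0.05. The comparisons with day 0 share its 4 arrays. In whole muscle, more cells of a type and more RNA per cell cannot be told apart.

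The stretch around the transcription start is shown for 1 co-receptor, 1 CD3 chain and Cd5, so that members with a large, a small and an intermediate day 3 difference can be set side by side. All 10 genes were found in RefSeq (GRCr8), but the sequences used here held such stretches for 8 of them, all but Cd4 and Cd8b. These 9 stretches each ran from 250 bases before to 50 after a start, and Lck had 2. They were searched on both strands for GGAAGT, a core bound by ETS factors, TGTGGT, a core bound by RUNX factors, and CANNTG, the E-box. These motifs were chosen with the sequences in view and may overlap one another. Capitals mark the matches.
Cd8a (chr4:104923866-104924165, plus strand): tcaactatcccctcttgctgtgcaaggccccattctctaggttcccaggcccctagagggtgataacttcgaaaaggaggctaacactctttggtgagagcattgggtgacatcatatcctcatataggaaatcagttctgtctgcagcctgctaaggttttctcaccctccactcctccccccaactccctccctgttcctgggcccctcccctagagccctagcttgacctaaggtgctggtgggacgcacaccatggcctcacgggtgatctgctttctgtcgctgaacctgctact
Cd3e (chr8:54211721-54212020, minus strand): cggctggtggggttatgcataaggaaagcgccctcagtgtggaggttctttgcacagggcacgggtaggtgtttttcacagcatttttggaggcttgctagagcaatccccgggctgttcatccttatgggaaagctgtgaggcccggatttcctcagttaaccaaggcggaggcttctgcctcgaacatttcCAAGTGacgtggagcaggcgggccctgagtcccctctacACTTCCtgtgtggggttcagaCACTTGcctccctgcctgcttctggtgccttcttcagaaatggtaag
Cd5 (chr1:216811160-216811459, minus strand): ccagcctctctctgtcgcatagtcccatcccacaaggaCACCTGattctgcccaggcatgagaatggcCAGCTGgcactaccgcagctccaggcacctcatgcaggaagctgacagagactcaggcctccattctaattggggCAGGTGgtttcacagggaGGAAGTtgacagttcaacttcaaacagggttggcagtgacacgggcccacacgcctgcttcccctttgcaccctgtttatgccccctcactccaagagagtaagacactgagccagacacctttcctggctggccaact
The Cd8a stretch held none of the 3 motifs in these letters. In Cd3e an ETS core on the opposite strand began at position -18 from the start, with E-boxes at -57 and 4, and in Cd5 an ETS core lay at -89 with E-boxes at -212, -182 and -107. Among all 33469 such stretches 22.6% held GGAAGT, 17.3% TGTGGT and 72.1% CANNTG, and among the 8 genes GGAAGT was found in 4 (Cd3d, Cd3e, Cd5 and Lck), TGTGGT in Lck alone and CANNTG in 6. The shares are per stretch and the counts per gene, with Cd8a the only co-receptor among the 8. A match is a description of letters and was not tested as a binding site. In the same annotation Cd3g, Cd3d and Cd3e lie next to each other on chromosome 8 with 0 genes between them, and Cd8b and Cd8a lie on chromosome 4 with 0 protein-coding genes and 1 pseudogene between them.

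The co-receptor genes were far above control muscle at day 3 and then parted. Cd4 read 6.48, 6.24, 6.43 and 5.92 on the 4 day 0 arrays, 8.87, 9.23, 9.44 and 9.56 at day 3, 9.52, 9.42, 9.35 and 9.89 at day 7, and 8.47, 7.70, 8.57 and 7.81 at day 28. No array of a later day overlapped day 0, the days 3 and 7 overlapped each other, and day 28 lay between control muscle and day 7 with no overlap on either side. The day means were 6.27 ± 0.25, 9.27 ± 0.30, 9.55 ± 0.24 and 8.14 ± 0.45 (SD, n = 4), and the difference of Cd4 from day 0 was 3.01 ± 0.21 (day 3), 3.28 ± 0.21 (day 7) and 1.87 ± 0.21 (day 28). From day 3 to day 7 it differed by 0.27 ± 0.21, and from day 7 to day 28 by -1.41 ± 0.21.

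Cd8a, the alpha chain of CD8, read 2.64, 3.17, 3.37 and 3.64 at day 0, 7.05, 7.98, 7.50 and 7.85 at day 3, 5.11, 4.48, 4.84 and 4.57 at day 7, and 3.34, 3.62, 3.16 and 3.48 at day 28. Day 3 stood clear of every other day, day 7 lay between, and the day 28 arrays all fell inside the range of control muscle. Its difference from day 0 was 4.39 ± 0.22 at day 3, where 3 of 4 day 0 arrays lay under their median of all clusters, then 1.54 ± 0.22 at day 7 and 0.20 ± 0.22 at day 28. From day 3 to day 7 it differed by -2.84 ± 0.22.

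Cd8b, the beta chain, read 3.30, 3.56, 2.84 and 2.39 at day 0, 5.82, 5.90, 5.41 and 6.37 at day 3, 4.85, 4.36, 4.44 and 5.29 at day 7, and 3.19, 3.49, 2.87 and 3.22 at day 28. The order of the days was that of Cd8a, again with no overlap between days 3 and 7 or between day 7 and day 28, and with day 28 inside the control range. Its differences from day 0 were 2.85 ± 0.26, 1.71 ± 0.26 and 0.17 ± 0.26 at days 3, 7 and 28, and from day 3 to day 7 it differed by -1.14 ± 0.26, a smaller step than that of Cd8a. The day 28 differences of Cd8a and Cd8b turned to -0.06 and -0.08 under centring of arrays on the median of all tested genes. The median difference of all genes was then -0.26.

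**Figure D1:**
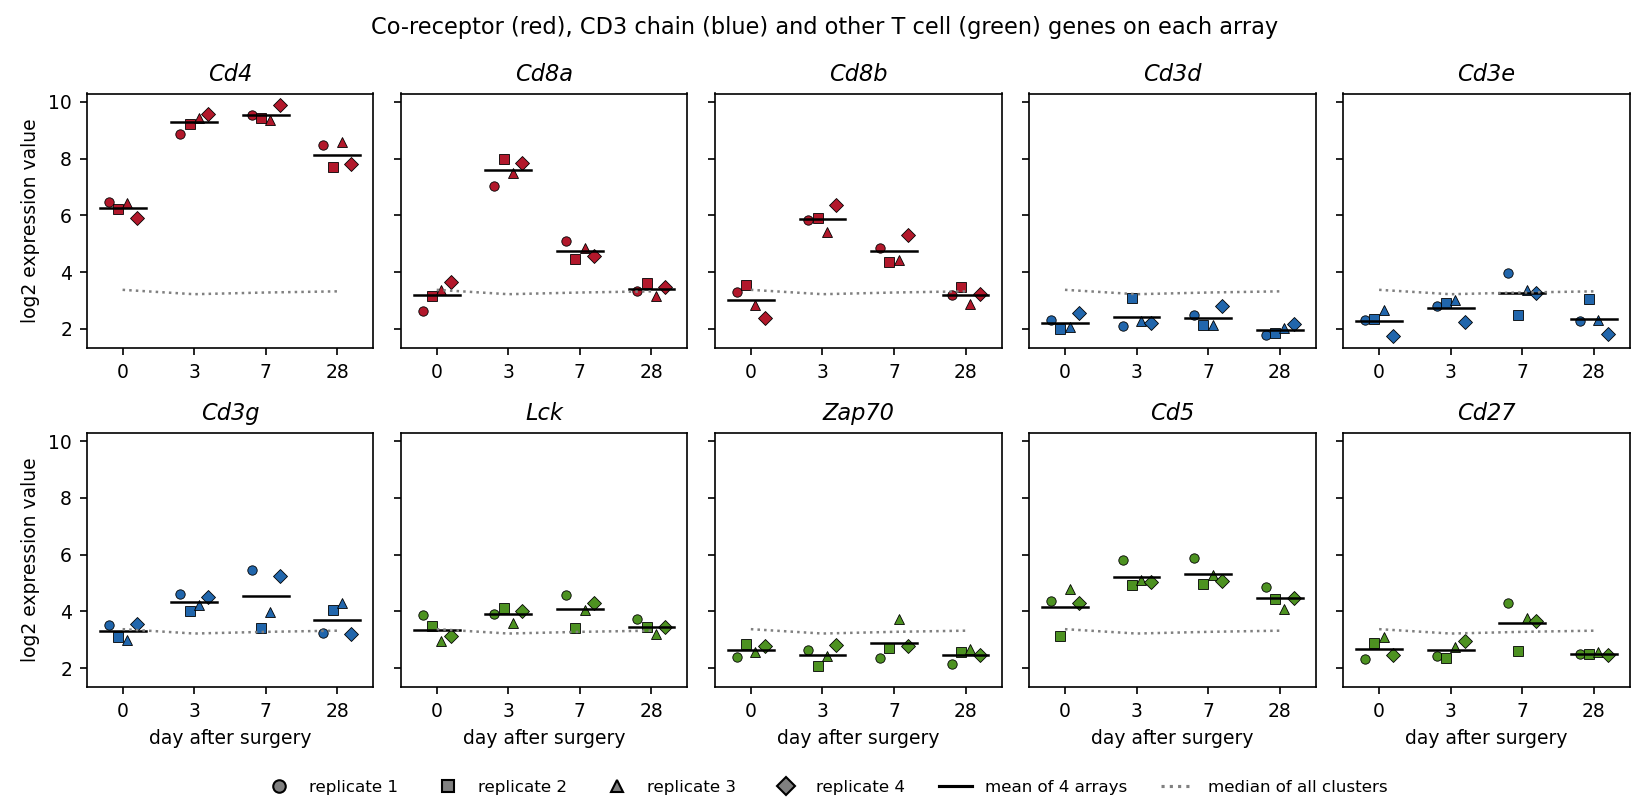
Log2 expression value of each of the 10 genes on each array, by day after surgery (evenly spaced, not to scale), with symbols for the replicates, a bar for the mean of 4 arrays and a dotted line for the mean array median of all clusters on that day. Cd4, Cd8a and Cd8b stand far above day 0 at day 3, Cd4 stays high at day 7 while Cd8a and Cd8b are lower, and Cd3d, Cd3e and Zap70 lie near or under the dotted line on all days.

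The CD3 chains showed no step of that size on any day. Cd3e, which pairs with the other CD3 chains and is needed for the receptor to reach the surface, read 2.33, 2.37, 2.68 and 1.74 at day 0, 2.80, 2.92, 3.03 and 2.26 at day 3, 3.97, 2.49, 3.36 and 3.27 at day 7, and 2.26, 3.06, 2.30 and 1.82 at day 28. All 4 days overlapped, although 3 of the 4 day 7 arrays exceeded every array of the other days. The differences from day 0 were 0.47 ± 0.30, 1.00 ± 0.30 and 0.08 ± 0.30 at days 3, 7 and 28.

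Cd3g, the gamma chain, read 3.53, 3.11, 3.01 and 3.55 at day 0, 4.61, 4.03, 4.24 and 4.51 at day 3, 5.46, 3.43, 4.00 and 5.25 at day 7, and 3.23, 4.06, 4.30 and 3.20 at day 28. Day 3 did not overlap day 0, while the day 7 arrays spread widely and overlapped it. Its differences from day 0 were 1.05 ± 0.37 (day 3), 1.23 ± 0.37 (day 7) and 0.40 ± 0.37 (day 28). Cd3d, the delta chain, was dim throughout, with values from 1.80 to 3.08 over all 16 arrays, and differed from day 0 by 0.19 ± 0.21, 0.17 ± 0.21 and -0.26 ± 0.21. At such levels a change of Cd3d RNA may not be detectable, and centring arrays on all tested genes turned its first 2 differences to -0.27 and -0.19. The medians of all genes were then -0.51 and -0.40.

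The 2 kinases that act on the receptor were also low. Lck read 3.88, 3.47, 2.98 and 3.12 at day 0, 3.93, 4.12, 3.59 and 4.01 at day 3, 4.59, 3.41, 4.04 and 4.31 at day 7, and 3.75, 3.44, 3.21 and 3.44 at day 28. Every later day overlapped day 0, and the differences were 0.55 ± 0.23, 0.73 ± 0.23 and 0.10 ± 0.23. Zap70 lay between 2.07 and 2.85 on all arrays but 1, day 7 replicate 3 at 3.73, and differed from day 0 by -0.17 ± 0.24, 0.23 ± 0.24 and -0.20 ± 0.24. With arrays centred on all tested genes its day 3 difference was -0.64 and was called lower. In that setting the day 3 median of all genes was -0.51, and 8438 of 14557 genes were called lower. The day 7 sign of Zap70 and the day 28 signs of Cd3e and Lck turned under centring on all tested genes (-0.13, -0.17 and -0.15). The median of all genes was then -0.40 at day 7 and -0.26 at day 28.

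Cd5 and Cd27 followed different courses. Cd5 read 4.38, 3.13, 4.80 and 4.30 at day 0, 5.82, 4.93, 5.10 and 5.06 at day 3, 5.88, 4.97, 5.29 and 5.08 at day 7, and 4.86, 4.46, 4.11 and 4.49 at day 28. Days 3 and 7 did not overlap control muscle and nearly coincided with each other, with differences from day 0 of 1.08 ± 0.30 and 1.15 ± 0.30, against 0.33 ± 0.30 at day 28. Cd27 read 2.34, 2.89, 3.08 and 2.46 at day 0, 2.45, 2.38, 2.76 and 2.95 at day 3, 4.31, 2.63, 3.77 and 3.67 at day 7, and 2.50, 2.49, 2.57 and 2.46 at day 28. At day 7, 3 of its 4 arrays exceeded all 12 arrays of the other days, and it differed from day 0 by -0.06 ± 0.26, 0.90 ± 0.26 and -0.19 ± 0.26 in turn.

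**Figure D2:**
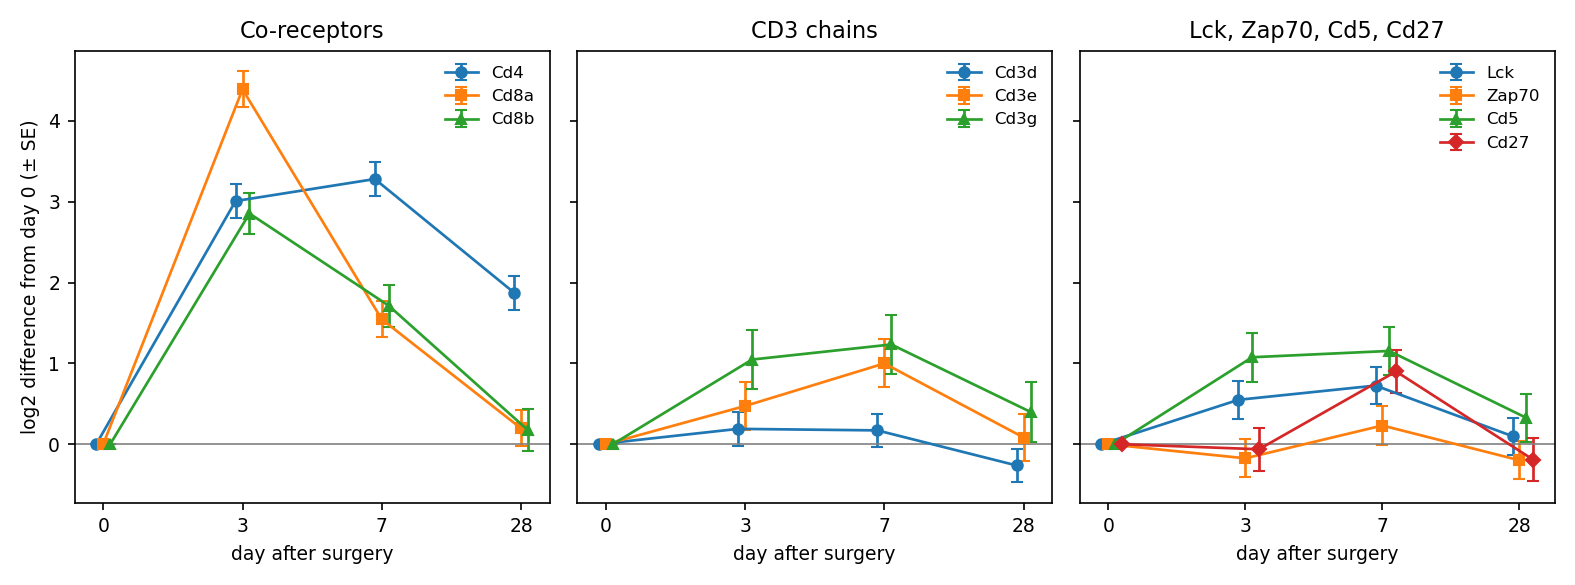
Log2 difference from day 0 (points, with bars of ± 1 SE from limma, n = 4 arrays a day) for the co-receptors, the CD3 chains and Lck, Zap70, Cd5 and Cd27, by day after surgery (evenly spaced, not to scale). Cd8a and Cd8b peak at day 3 and Cd4 is about level over days 3 and 7, while the other 7 genes stay under 1.3 log2 units on every day.

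Set side by side, the median difference from day 0 was 3.01 for the co-receptors, 0.47 for the CD3 chains and 0.24 for Lck, Zap70, Cd5 and Cd27 at day 3, and 1.71, 1.00 and 0.81 at day 7. Both CD3 medians are the values of Cd3e, which was dim on every day, as were Cd3d and Zap70. At such levels a change of RNA may not be fully detectable, so small differences of these genes are not read as a lack of change. At day 28 these medians were 0.20, 0.08 and -0.05, and Cd4 was the 1 gene of the 10 that stood clear of control muscle. The median of all 14557 genes was -0.05, -0.04 and -0.00 in these comparisons. In limma 5 of the 10 genes were called higher than day 0 at day 3 (Cd4, Cd8a, Cd8b, Cd3g and Cd5), where 21.7% of all genes were called higher. At day 7 it was 8 of 10, all but Cd3d and Zap70, with 16.9% of all genes called higher, and at day 28 it was Cd4 alone, with 6.29%. From day 3 to day 7, Cd27 was called higher (background 6.02%) and Cd8a and Cd8b lower (9.23%), and from day 7 to day 28 Cd4, Cd8a, Cd8b, Cd3e and Cd27 were called lower (9.38%). Genes called lower were 19.6%, 14.9% and 2.8% of all genes at days 3, 7 and 28 against day 0, and 8.24% were called higher from day 7 to day 28, with 0 of the 10 in each case. Genes whose 4 arrays all lay above, or all below, those of day 0 made up 20.7% and 18.6% of all genes at day 3, 16.3% and 15.8% at day 7, and 8.93% and 6.95% at day 28. The same shares were 7.2% and 10.8% from day 3 to day 7, and 11% and 10.1% from day 7 to day 28. Because the genes were chosen with these contrasts known, nothing is read from the counts. The calls of Cd3g and Cd5 at day 3, of Cd3e, Cd3g, Lck and Cd27 at day 7, of Cd27 from day 3 to day 7 and of Cd3e from day 7 to day 28 each depended on a single array or a scaling.

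The 4 day 7 arrays differed among themselves in T cell genes. Replicate 2 was the lowest of the 4 in 8 of the 10 genes (all but Cd4 and Zap70), and in 20 of the 33 other T cell genes measured, where it was the lowest in 25.4% of all genes tested. Averaged over the 3 CD3 chains it lay 0.72 log2 units under the day 7 mean, and replicate 1 lay 0.58 above it. In the same replicate 2, 13 of 17 macrophage and monocyte markers were the highest of the 4, against 24.3% of all genes, and 9 neutrophil markers lay on average 1.13 above their day 7 mean, with replicate 2 the highest in 5 of the 9 and the lowest in 2. Without replicate 2 the day 7 differences from day 0 were 1.26 for Cd3e, 1.60 for Cd3g, 0.95 for Lck and 1.22 for Cd27. Without replicate 1 they were 0.77, 0.92, 0.56 and 0.66, and none of the 4 was then called. This array pattern was noticed after the values were seen, and its part in the day 7 results was not tested beyond these values.

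**Figure D3:**
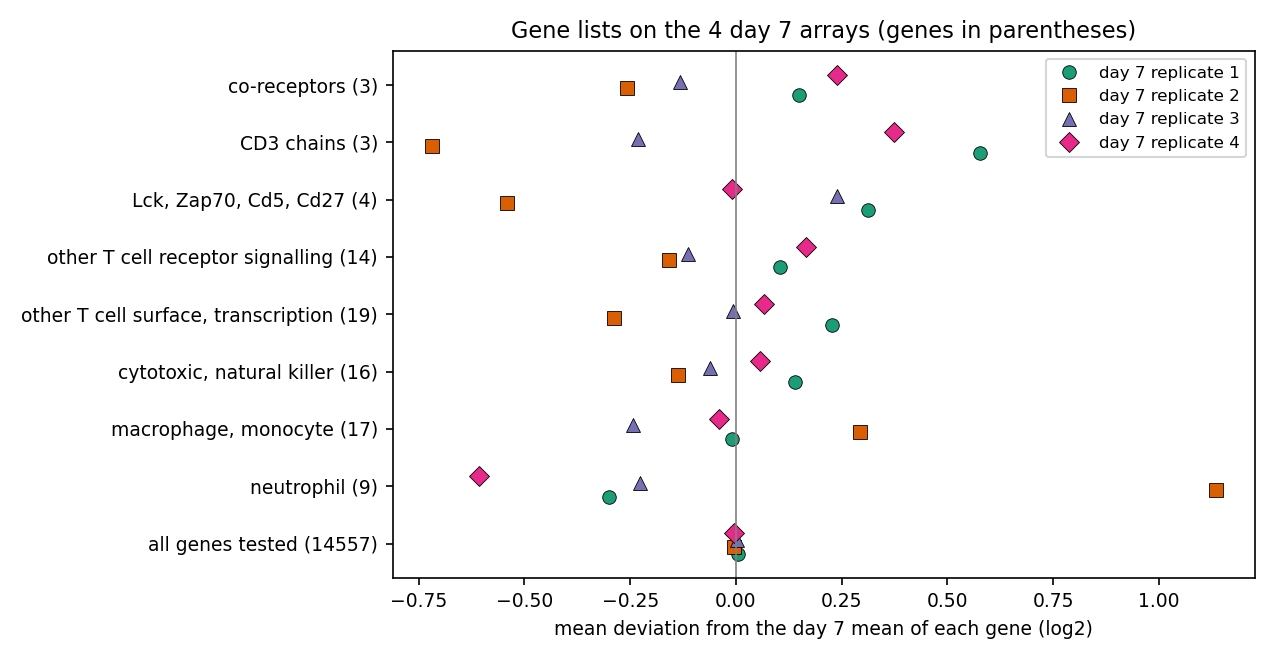
Mean deviation of each gene list on the 4 day 7 arrays from the day 7 mean of its genes (log2 units, number of genes in parentheses). Replicate 2 lies lowest for the CD3 chains (-0.72) and the other T cell lists and highest for macrophage (0.29) and neutrophil markers (1.13), while over all genes the 4 arrays lie within 0.01 of the day 7 mean.

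Other T cell genes were read from 2 lists, of which 33 of 45 had a cluster of their own. At day 3, 8 of the 33 rose and 2 fell, with a median of 0.13, and 14 of 33 rose and 1 fell at day 7, with a median of 0.42. At day 28, 2 rose and 0 fell (median 0.03). From day 3 to day 7, 2 rose and 2 fell, and from day 7 to day 28, 1 rose and 11 fell (median -0.42). Of the 33 genes 20 were dim at day 0 and 14 on every day. The counts that rose at days 3, 7 and 28 stand beside 21.7%, 16.9% and 6.29% of all genes called higher. Those that fell stand beside 19.6%, 14.9% and 2.8% called lower. From day 3 to day 7, 6.02% of all genes were called higher and 9.23% lower. From day 7 to day 28 the shares were 8.24% and 9.38%. With arrays centred on all tested genes 6 of the 33 rose and 10 fell at day 3, and 9 rose and 4 fell at day 7. That centring called 1883 of all 14557 genes higher and 8438 lower at day 3, and 1417 and 7025 at day 7. The day 3 median of the 33 became -0.33, where that of all genes was -0.51. With arrays centred on the brighter genes these medians were -0.03 and -0.21. The genes of the T cell receptor constant regions had no cluster named here and were not analysed.

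Among 14 signalling genes, 3 rose and 0 fell at day 3, where 21.7% of all genes were called higher and 19.6% lower. With arrays centred on all tested genes 2 rose and 6 fell, where 1883 of 14557 genes were called higher and 8438 lower. Vav1, a signalling protein of blood cells, rose by 4.02 ± 0.24 with adjusted p = 5.63e-10, Lcp2, the adapter SLP-76, by 2.50 ± 0.20 and Ptprcap, which associates with the phosphatase CD45, by 0.79 ± 0.22, a call lost under that centring (0.33). Vav1 and Lcp2, both also used by myeloid cells, then fell from day 3 to day 7 by 1.59 and 1.01, whereas Ptprcap stood 1.41 ± 0.22 above day 0 at day 7. Ptpn22, a phosphatase that restrains receptor signals, rose at day 7 (0.81 ± 0.28, adjusted p = 0.0332), a call lost when any of day 0 replicates 1, 2 and 3 or day 7 replicates 1 and 4 was left out, with the replicate block, or with arrays centred on all tested genes. Cd247, the zeta chain of the receptor complex, read 3.13, 2.58, 2.60 and 3.06 at day 0 and 3.78, 3.50, 2.65 and 4.17 at day 7, and its difference of 0.68 ± 0.28 did not pass (adjusted p = 0.0733). Without day 7 replicate 3 it passed, at 0.97. Skap1, an adapter of T cell adhesion, differed from day 0 by -0.38 ± 0.16 at day 3 (adjusted p = 0.0691; it passed as lower under 8 of 25 alternatives, down to -0.84) and rose from day 3 to day 7 by 0.60 ± 0.16 with adjusted p = 0.0151, a call lost without day 3 replicate 2 or day 7 replicate 4. Lat, the scaffold that ZAP70 phosphorylates, differed by 0.12 at day 3 and -0.11 at day 7 and passed on neither day, and Themis, Sit1, Txk and Ubash3a also passed on neither.

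Of 19 surface and transcription genes, 5 rose and 2 fell at day 3, and 9 rose and 1 fell at day 7, where 21.7% and 16.9% of all genes were called higher and 19.6% and 14.9% lower. With arrays centred on all tested genes 4 rose and 4 fell at day 3, and 6 rose and 2 fell at day 7. Of all 14557 genes this centring called 1883 higher and 8438 lower at day 3, and 1417 and 7025 at day 7. Cd28, the main co-stimulatory receptor of T cells, read 4.98, 5.28, 4.09 and 4.57 at day 0 and 5.19, 4.76, 4.97 and 4.42 at day 3, and then 7.12, 6.14, 6.67 and 6.20 at day 7. No day 7 array overlapped another day: Cd28 rose from day 3 to day 7 by 1.70 ± 0.25 with adjusted p = 0.00019 and fell by 1.31 ± 0.25 to day 28. Il7r, the interleukin 7 receptor of resting T cells, had risen by day 3 (1.21 ± 0.23) and stood 1.40 ± 0.23 above day 0 at day 7. Cd2, an adhesion receptor of T and natural killer cells (1.29 ± 0.28 and 1.07 ± 0.28), Cd7 (1.65 ± 0.27 and 1.63 ± 0.27) and Il2ra, the inducible alpha chain of the interleukin 2 receptor (1.04 ± 0.18 and 0.93 ± 0.18), rose on both days. Gata3, a transcription factor of helper T cells, and Tcf7, one of resting T cells, rose at day 7 by 1.33 ± 0.28 and 0.73 ± 0.22. The Tcf7 call was lost without day 0 replicate 1 or day 7 replicate 1, or with arrays centred on all tested genes. Gata3 had also passed at day 3, at 0.76 ± 0.28. That call was lost under 8 of 25 alternatives, among them 3 rescalings and 5 left-out arrays, with values down to 0.30.

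Cd6, a receptor related to Cd5, took another course. It read 4.27, 4.58, 4.12 and 4.04 at day 0, 4.82, 4.37, 5.48 and 5.45 at day 7, and 6.01, 5.62, 5.64 and 5.74 at day 28, where no array overlapped any other day. Cd6 thus stood 1.50 ± 0.22 above day 0 at day 28 with adjusted p = 0.000353, and with Plcg1 (0.54 ± 0.13, not called at 0.29 under centring on all tested genes), a phospholipase present in most cells, it made up the 2 genes that rose. Foxp3, the factor of regulatory T cells, read 3.81, 3.34, 3.74 and 3.49 at day 0 and 3.18, 2.86, 2.81 and 3.14 at day 3, a fall of 0.60 ± 0.20 (adjusted p = 0.023) that did not pass when any 1 of 4 arrays (day 0 replicates 1 or 3, day 3 replicates 2 or 3) was left out. S1pr1, a receptor of lymphocyte exit that endothelial cells express strongly, fell by 1.22 ± 0.18 at day 3 and 1.05 ± 0.18 at day 7. Tbx21, Cxcr3, Pdcd1, Ccr7 and Cd96 passed in no comparison with day 0.

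Cytotoxic and natural killer genes were counted next. Of 16 measured genes, 15 of them dim at day 0, 4 rose and 0 fell at day 3 (median 0.07), 8 rose and 0 fell at day 7 (median 0.59) and 0 rose or fell at day 28 (median 0.07). All genes called higher were 21.7% at day 3, 16.9% at day 7 and 6.29% at day 28. Those called lower were 19.6%, 14.9% and 2.8%. From day 7 to day 28, 6 fell and 0 rose, where 9.38% of all genes were called lower and 8.24% higher. With arrays centred on all tested genes 2 rose and 5 fell at day 3, and 5 rose and 3 fell at day 7. Of all 14557 genes this centring called 1883 higher and 8438 lower at day 3, and 1417 and 7025 at day 7. The median of the 16 at day 3 became -0.40 under it, where that of all genes was -0.51. With arrays centred on the brighter genes these medians were -0.09 and -0.21. At day 7 Ccl5, a chemokine made by cytotoxic lymphocytes among others, rose by 1.51 ± 0.27, Nkg7, a granule protein, by 1.29 ± 0.27, Klrk1, the receptor NKG2D, by 1.18 ± 0.25 and Ctsw, a protease of cytotoxic cells, by 1.16 ± 0.23. Klrc1, an NKG2 receptor (0.69 ± 0.19), and Gzmk, a granzyme (0.67 ± 0.16), rose from day 3 to day 7, the call of Klrc1 being lost with only the compared groups and without day 3 replicate 3 or day 7 replicate 1. Gzma, Gzmb and Ifng differed from day 0 by -0.04, -0.13 and -0.12 at day 3 and by 0.18, -0.29 and -0.24 at day 7, and none passed.

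**Figure D4:**
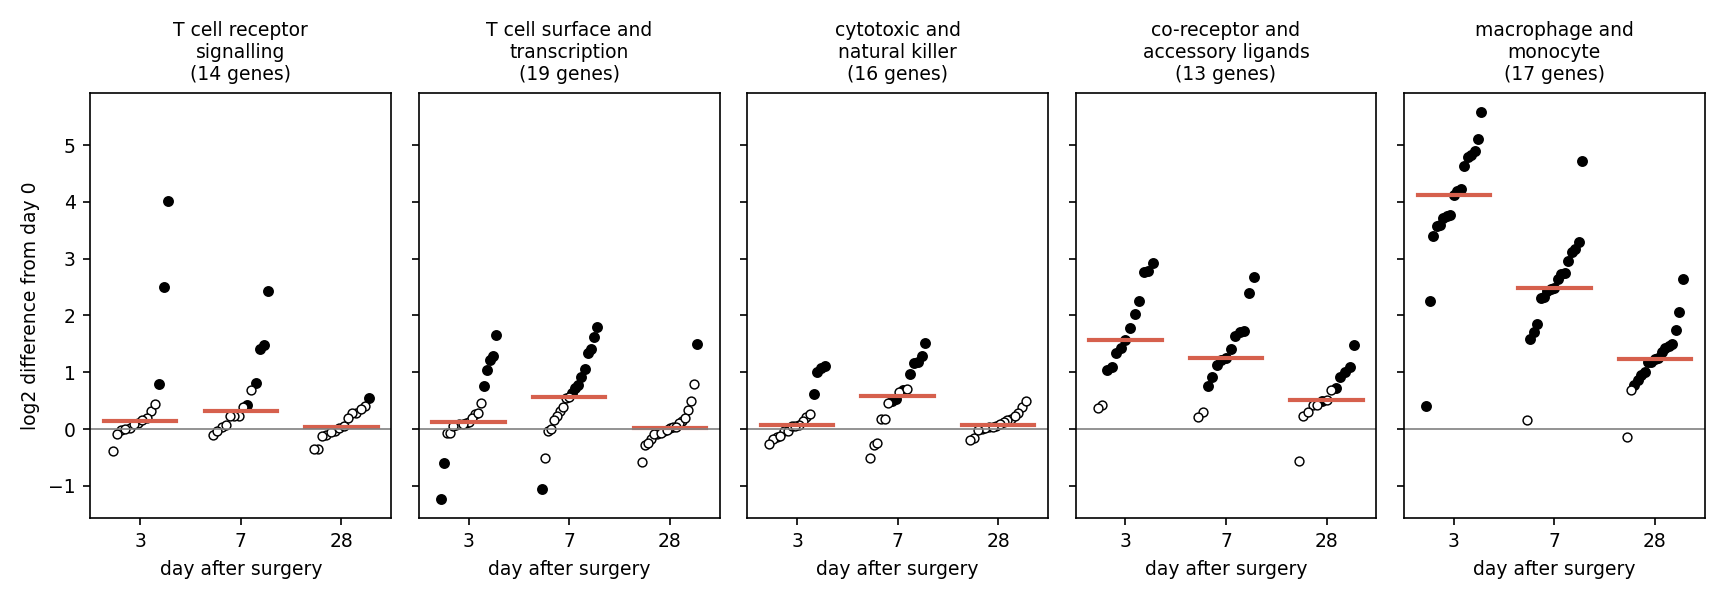
Log2 difference from day 0 of each gene of 5 lists at days 3, 7 and 28, with filled points for genes called in limma (adjusted p under 0.05), open points for the others and a red bar for the list median. Macrophage markers and co-receptor ligands are highest at day 3, where their medians are 4.12 and 1.57, while the median of T cell surface and transcription genes is 0.13 at day 3 and 0.56 at day 7.

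Markers of other leukocytes were read from the same arrays. All 17 measured macrophage and monocyte markers rose at day 3 (median 4.12), 16 rose at day 7 (2.49) and 15 at day 28 (1.24), with 0 that fell. The shares of all genes called higher were 21.7%, 16.9% and 6.29% on these days. With arrays centred on all tested genes 16, 16 and 13 of the markers rose and 0 fell. That centring called 1883, 1417 and 544 of all 14557 genes higher, and 8438, 7025 and 3043 lower. The mean of the markers over an array lay between 4.17 and 4.47 at day 0 and between 8.11 and 8.52 at day 3. It lay between 6.64 and 7.18 at day 7, and between 5.35 and 5.81 at day 28. From day 3 to day 7, 15 of the 17 fell and 0 rose, where 9.23% of all genes were called lower and 6.02% higher. Cd68, a lysosomal protein of macrophages, thus fell by 1.61 ± 0.19 in that step and Csf1r, the receptor for macrophage colony stimulating factor, by 1.28 ± 0.18, where Cd8a differed by -2.84, Cd8b by -1.14 and Cd4 by 0.27. All 10 measured genes of leukocytes in general rose at day 3 (median 3.54), among them Ptprc, which encodes CD45 (4.01 ± 0.19). The part of macrophages in the co-receptor values was not tested.

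A list of Src and Syk family kinases, with adapters and regulators of such kinases, was measured as well. Of 11 genes 9 rose and 0 fell at day 3 (median 2.08), and 7 rose and 0 fell at day 7 (1.14). Of all genes 21.7% and 16.9% were called higher on these days. With centring on all tested genes 6 of the 11 rose and 1 fell on each day. Of all 14557 genes 1883 and 1417 were then called higher, and 8438 and 7025 lower. The 9 that rose at day 3 as deposited include the phosphatase gene Ptpn6, the ubiquitin ligase gene Cbl and Csk, whose kinase inhibits Src family members. Syk, the relative of ZAP70 in myeloid and B cells, read 3.13, 3.38, 3.86 and 3.93 at day 0 and 6.15, 6.17, 5.96 and 6.56 at day 3, a rise of 2.63 ± 0.22, where Zap70 differed by -0.17 ± 0.24. Lyn and Fgr, Src family kinases of myeloid cells, rose by 3.14 ± 0.22 and 2.75 ± 0.17, where Lck, of the same family, differed by 0.55 ± 0.23. Fcer1g, an adapter with the signalling motif also found in CD3 chains, rose by 4.21 ± 0.18. Blk, a kinase of B cells, and Yes1, present in most cells, differed by 0.15 and -0.29 and did not pass.

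Ligands of the co-receptors and accessory receptors were higher too. Of 13 measured genes 11 rose and 0 fell at day 3 (median 1.57) and at day 7 (1.26), and 6 rose and 0 fell at day 28 (0.51). The shares of all genes called higher were 21.7%, 16.9% and 6.29% on these days. With arrays centred on all tested genes 9, 11 and 5 of the 13 rose and 0 fell. Of all 14557 genes 1883, 1417 and 544 were then called higher, and 8438, 7025 and 3043 lower. Cd74, the invariant chain that guides MHC class II, read 8.08, 8.37, 8.35 and 8.25 at day 0 against lowest and highest readings of 10.51 and 11.31 on day 3, of 10.71 and 11.29 on day 7, and of 9.52 and 10.08 on day 28, a course that parted from control muscle on every later day as Cd4 did. RT1-Da, a class II chain, rose by 2.78 ± 0.21 at day 3 and 2.40 ± 0.21 at day 7, and B2m, the light chain of class I, by 1.05 and 1.13. RT1-DMa, which loads peptide on class II, fell from day 3 to day 7 by 1.29 ± 0.17. Cd70, the ligand of CD27, differed by 0.42 at day 3 and 0.30 at day 7 and did not pass on either day.

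For the remaining lists, 6 of 8 dendritic cell markers rose and 0 fell at day 3 and 7 rose and 0 fell at day 7 (5 and 4 rose with arrays centred on all tested genes). Of 8 B cell and plasma cell markers 3 rose and 2 fell at day 3 and 3 rose and 1 fell at day 7, and under that centring 2 rose and 3 fell, then 1 rose and 3 fell. At day 3 Blnk, an adapter of the B cell receptor, rose by 3.94 ± 0.23, Cd22 by 1.67 ± 0.19 and Jchain by 0.92 ± 0.32. The Jchain arrays overlapped those of day 0. Mzb1 (-0.46 ± 0.16) and Tnfrsf13c (-0.47 ± 0.18) were called lower, with no overlap, while Ms4a1 (CD20) and Pax5 differed by -0.29 and 0.25 and did not pass. All 8 markers were dim at day 0. With 1 array left out 2 to 3 of the 8 rose and 0 to 2 fell at day 3. Under cyclic loess 3 rose and 1 fell. Of 9 neutrophil markers 2 rose and 0 fell at day 3 and at day 7. With arrays centred on all tested genes 2 rose and 2 fell, then 1 rose and 2 fell. All genes called higher were 21.7% and 16.9% on these days, and those called lower were 19.6% and 14.9%. Centring on all tested genes called 1883 of 14557 genes higher and 8438 lower at day 3, and 1417 and 7025 at day 7. All 9 fibroblast markers rose on both days. At day 3, 5 of 8 endothelial markers fell and 1 rose (7 and 0 under that centring). The count of muscle fibre markers at day 3 depended on the scaling: of 9, 4 fell and 0 rose as deposited (median -0.09), 9 fell and 0 rose with arrays centred on all tested genes, and 3 fell and 5 rose under cyclic loess (0.31). Acta1 and Ckm, skeletal muscle actin and muscle creatine kinase, lay between 12.77 and 13.63 on all 16 arrays.

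The genes closest to a member in course were found by the root mean square difference between profiles over the 16 arrays, each centred on its own mean, with the members and predicted genes passed over. For Cd4 they were Col6a1 (0.25 log2 units), Cd74 (0.29), Ccdc80 (0.30) and Pltp (0.31). For Cd8a they were Il18 (0.42), Cd180 (0.49), Prc1 (0.50) and Cotl1 (0.51), and for Cd8b Itgal (0.33), Trem2 (0.35), Fgd2 (0.35) and Ripk3 (0.37). For Cd3e they were Jakmip1 (0.34), Tal2 (0.34), Tmem127 (0.35) and Ctsw (0.35). Among the members themselves the closest pairs were Cd3d with Lck (0.40) and Cd3e with Cd27 (0.41). The arrays fall into 4 days, so these distances mostly describe the course of the day means, and a gene that is dim throughout lies close to any other such gene.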

How the data were processed

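Gene expression was measured in rat plantaris muscle on 16 Affymetrix Rat Gene 2.1 ST arrays, 4 for each of days 0, 3, 7 and 28, from 400 ng of total RNA per the labels. The deposited log2 values were produced by RMA; the submitters' processing notes name RMA, oligo and limma, while versions, parameters and build are not given in the sources used here. Clusters were named through the platform annotation, the brightest cluster of a gene being used (14557 genes). Group means of all 16 arrays were fitted with limma 3.58.1 in R 4.3.3, without further normalization, with empirical Bayes moderation (12 residual and 4.99 prior degrees of freedom), two-sided tests and Benjamini-Hochberg adjustment over all genes at 0.05. The fit was tested on simulated data.

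The members, the 17 gene lists (158 of 201 genes measured) and the rule for named genes were chosen with earlier results of these data known. The rule names the 10 members, any gene of the T cell lists, up to 4 called genes with separate arrays from each other list and comparison, a short panel, and the 4 genes nearest to each of 4 members. Ms4a1, Pax5, Jchain, Cbl, Csk, Gzma, Gzmb, Ifng, Yes1, Blk, B2m and Cd70 were named after their values were seen. Since separate animals are not stated, p-values reflect the spread among arrays, which may be technical. Precision is limited by having 4 arrays a day. Replicate numbers are shared between days. Correlations of deviations from the day means were -0.04 to 0.09 (median 0.02) for 24 pairs of arrays with the same number. For 72 pairs with different numbers they were -0.12 to 0.09 (median -0.01). Arrays were not treated as pairs in the main fit, and a fit with the replicate number as a block is among the alternatives. Alternatives are given in the closing section.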

Additional observations from a re-analysis of the deposited data

Results flagged for a closer look

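Of 40 groups of 4 values (10 genes on 4 days) 1 held an array far from the other 3 by Dixon's ratio, where chance flags about 5% of groups. Cd3d on day 3 replicate 2 read 3.08, with a ratio of 0.84, and the other day 3 arrays read 2.11, 2.26 and 2.21. All 4 values lie under their array medians.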

How the results depend on the processing

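Of the 50 differences of the 10 genes, none changed sign among those called, under the alternatives tried (15 of the 50 could be fitted without the dimmest 50% of genes), and with all arrays 14 moved by more than 1 SD between replicates, all under centring on all tested genes. That centring shifted all genes by -0.46, -0.36 and -0.25 against day 0 at days 3, 7 and 28, by 0.10 from day 3 to 7 and by 0.11 from day 7 to 28. The calls of the co-receptors held under every alternative tried in the comparisons of days 3 and 7 with day 0. Calls were lost for 6 differences and gained for Zap70 at day 3 (-0.64, lower) under this centring, and lost for 1 under centring on the brighter genes (those with a mean above the median, chosen after the data were seen), 2 under cyclic loess, 1 with array weights and 4 with only the compared groups. Left-out arrays ended calls of Cd3g at day 3 (day 0 replicates 2 and 3, day 3 replicates 1 and 4; 0.95 to 0.99), Cd3e at day 7 (day 0 replicate 4 at 0.82, day 7 replicate 1 at 0.77), Cd3g at day 7 (replicates 1 at 0.92 and 4 at 1.00), Lck at day 7 (day 0 replicates 3 and 4, day 7 replicates 1 and 4; 0.56 to 0.65) and Cd27 at day 7 (replicate 1, 0.66). The steps of Cd27 from day 3 to 7 (day 3 replicate 2, day 7 replicates 1 and 3) and of Cd3e from day 7 to 28 (day 7 replicates 1, 3 and 4, day 28 replicates 1, 3 and 4) were also lost. Calls were gained by Lck at day 3 without day 0 replicate 1, day 3 replicate 3 or day 7 replicate 2 (0.55 to 0.72). From day 7 to 28, Cd3g (-1.20) and Lck (-0.85) gained one without day 7 replicate 2. Cd5 (-0.83) did so without day 0 replicate 2, with only the compared groups and without the dimmest 50% of genes.

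Genes called rose from 6013 to 10321 at day 3, from 4617 to 8442 at day 7 and from 1323 to 3587 at day 28 under centring on all tested genes, and called genes that were higher went from 52.5% to 18.2%, 53.2% to 16.8% and 69.2% to 15.2%, with 39.5% to 56.9% from day 3 to 7 and 46.8% to 65.7% from day 7 to 28. Centred on the brighter genes they were 37.7%, 44.0%, 53.7%, 53.5% and 48.4% in turn. Other T cell genes that rose were 8, 14, 2, 2 and 1 in the 5 comparisons. They became 2, 6 and 2 (days 3, 7 and 28 against 7) without the dimmest 50% of genes, where fewer were tested, 9, 1, 4 and 2 (day 7, day 28, day 7 against 3, day 28 against 7) under centring on all genes, 4 (day 7 against 3) on the brighter genes and 0 (day 28 against 7) with only the compared groups. Leaving out an array gave 7 to 9, 11 to 16, 2 to 3, 1 to 3 and 0 to 1. The cause was not tested. The replicate number as a block gained 3 calls among the 10 genes, Lck at day 3 (0.55), and Lck (-0.63) and Cd5 (-0.83) from day 7 to 28, and lost 0; 7 of 16 arrays were closest to their own number.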
